A study of Mus musculus with 24 samples.

Results

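Hox genes encode transcription factors with a homeodomain, a DNA-binding fold, and lie in 4 clusters, HoxA to HoxD. The genes in rows of the deposited table named Hox, a cluster letter and a paralog number (the number shared by the corresponding genes of different clusters) were taken as a whole, with no choice by measured value, which gave 33 of the 13803 genes in the table. The GENCODE M21 annotation of GRCm38 (mm10) holds 39 such genes, of which Hoxa13, Hoxb1, Hoxb13, Hoxc12, Hoxc13 and Hoxd1 are not analysed here. HoxA, with 10 of 11 genes, spans chr6:52155590-52260880. HoxB, with 8 of 10, spans chr11:96194316-96368256, HoxC, with 7 of 9, spans chr15:102921103-103036852, and HoxD, with 8 of 9, spans chr2:74668310-74765142.

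Messenger RNA was sequenced from stromal cells of embryonic mouse kidneys, the cells around the nephron progenitors that form the supporting tissue of the organ. The cells had been sorted by fluorescence from dissociated kidneys that carry FoxD1Cre-eGFP, a Cre recombinase and green fluorescent protein made where the stromal gene Foxd1 is active, so Cre acts in stroma and its descendants. The 24 libraries form 8 groups of 3. Cells of genotype beta-catSD, in which beta-catenin is deficient, came from C57BL/6 embryos at E12.5 and E13.5 (E, embryonic day), and cells of genotype beta-catSO, in which it is stabilised, from CD1 embryos at both stages. Wild-type cells of each strain were taken at both stages. The series text places FoxD1Cre-eGFP in the wild-type kidneys too, the beta-catenin alleles used are not given in the labels, and some cells may have been sorted again. The 2 genotypes are called SD and SO below, and strain goes with genotype, so each was compared with wild-type libraries of its own strain. Nothing in the labels shows that the 3 libraries of a group are separate kidneys or animals, so p-values measure only the spread among libraries, which may be technical. In bulk RNA of this kind, fewer cells of a type and less RNA per cell cannot be told apart.

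Genes within a cluster are arranged in the order of their paralog numbers, and along the body axis low-numbered (anterior) genes are active further forward than high-numbered (posterior) ones. In the kidney, paralogs 11 act with Eya1 and Pax2 to turn on Six2 and Gdnf in the metanephric mesenchyme, and paralogs 10 are known from mouse genetics to be needed for the integration of Foxd1-lineage stroma. Hox proteins bind DNA together with TALE homeodomain partners of the Pbx, Meis and Pknox families. Beta-catenin carries the canonical Wnt signal by joining TCF/LEF factors on DNA, and Cdx factors, which can respond to Wnt, are known activators of trunk Hox genes.

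Values are log2 CPM, the log2 of reads per mega-read of the library, with 0.5 added to each count. A gene was called when limma's Benjamini-Hochberg adjusted p over all 13803 genes was under 0.05, and only called genes are said here to rise or fall. Depth ran from 6.18 to 21.2 M reads a library, of which Hox genes took between 0.0943% and 0.138%, and every Hox gene had at least 5 reads in every library. The whole-gene level of Ctnnb1, the beta-catenin gene, does not show which exons are present. It was lower in SD by a log2 difference of -0.24 ± 0.05 (SE, limma adjusted p = 0.00193) and differed in SO by -0.10 (limma adjusted p = 0.143). Axin2, a common readout of canonical Wnt signalling, fell in SD by 1.02 on the log2 scale (limma adjusted p = 2.06e-06) and rose in SO by 3.60 (limma adjusted p = 6.63e-17). The stromal marker list was detected in every library, with a summed level of 9175 to 13345 CPM in the CD1 wild-type libraries at E13.5.

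The CD1 wild-type library replicate 1 at E13.5 stood apart from the other libraries of its group, and several results below use it. Its summed level of nephron progenitor markers was 436.9 CPM, against 115.2 and 109.1 CPM in replicates 2 and 3. Ureteric bud markers summed to 330.0 CPM there against 54.0 and 62.6 CPM, endothelial markers to 647.7 CPM against 68.7 and 35.9 CPM, and the stromal list to 9175 CPM against 13345 and 12224 CPM. The summed HoxB level was also high in it, at 236.7 CPM against 125.1 and 123.6 CPM. The counts of called genes in SO, and most mean differences from wild-type of the Hox genes called in SO, are given with and without it. The part of these cell types in the Hox values was not tested. Alb, a gene of liver cells, also differed within groups: its log2 CPM was 10.44 in C57BL/6 wild-type E12.5 replicate 3, 8.18 in CD1 wild-type replicate 3 at E13.5, and 5.45 to 5.77 in the 3 CD1 wild-type libraries at E12.5, where the SO libraries had -3.73 to -3.63, the floor at which no Alb read is counted. Leaving out the first of these gave 0 called Hox genes in the SD mean, and leaving out the second gave 14 in the SO mean, but at E12.5 the CD1 wild-type group and its Alb level cannot be told apart.

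In wild-type stroma the posterior paralogs held most of the Hox RNA, and the highest genes were the paralogs 10 of 3 clusters. Levels of different genes were compared per length, as CPM per kb of summed exon length. Over the 12 wild-type libraries Hoxc10 (chr15:102966796-102971893, plus strand) was highest at 90.8 ± 15.8 CPM per kb (SD, n = 12 libraries). Hoxa10 (chr6:52231197-52240854, minus strand) followed at 46.3 ± 4.28 and Hoxd10 (chr2:74691924-74695105, plus strand) at 39.9 ± 4.74 CPM per kb. Hoxd11 had 35.2 ± 3.36 CPM per kb and Hoxa11 30.3 ± 2.47 CPM per kb, and from Hoxa10 down to Hoxa11 the ranges over libraries of each gene and the next overlapped, so these neighbours in the order are not separated beyond their spread. The highest gene outside paralogs 9 to 11 was Hoxa5, at 24.3 ± 4.47 CPM per kb, and it was followed by Hoxd9 with 22.8 ± 1.99. At the other end stood Hoxd13 with 0.652 ± 0.374 CPM per kb.

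Summed over the members, paralogs 10 held 38.7% ± 2.37 of the per-length Hox level (SD, n = 12 wild-type libraries), and paralogs 11 held 15% ± 1.19. Paralogs 9 to 11 together held 64.5% ± 1.90, paralogs 1 to 8 held 34.5% ± 1.72 and paralogs 12 and 13 held 0.935% ± 0.308. By cluster, HoxA held 31.1%, HoxC 30.8% ± 2.94, HoxD 27.3% ± 1.58 and HoxB 10.8% ± 3.32. The highest HoxB share, 20.7%, and the lowest HoxC share, 23.3%, were those of the library that stood apart. In the wild-type groups other than CD1 at E13.5 the HoxB share was 7.70% to 11.2%. HoxB was thus the lowest of the 4 clusters, and its highest gene was Hoxb3 at 11.3 CPM per kb. Within the clusters the level did not follow the paralog number evenly: Hoxc11, next to Hoxc10, had 2.87 CPM per kb, and Hoxd12, next to Hoxd11, had 3.69 CPM per kb. With the longest transcript in place of the summed exons, paralogs 9 to 11 held 62.8% and Hoxd11 moved ahead of Hoxd10.

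**Figure D1:**
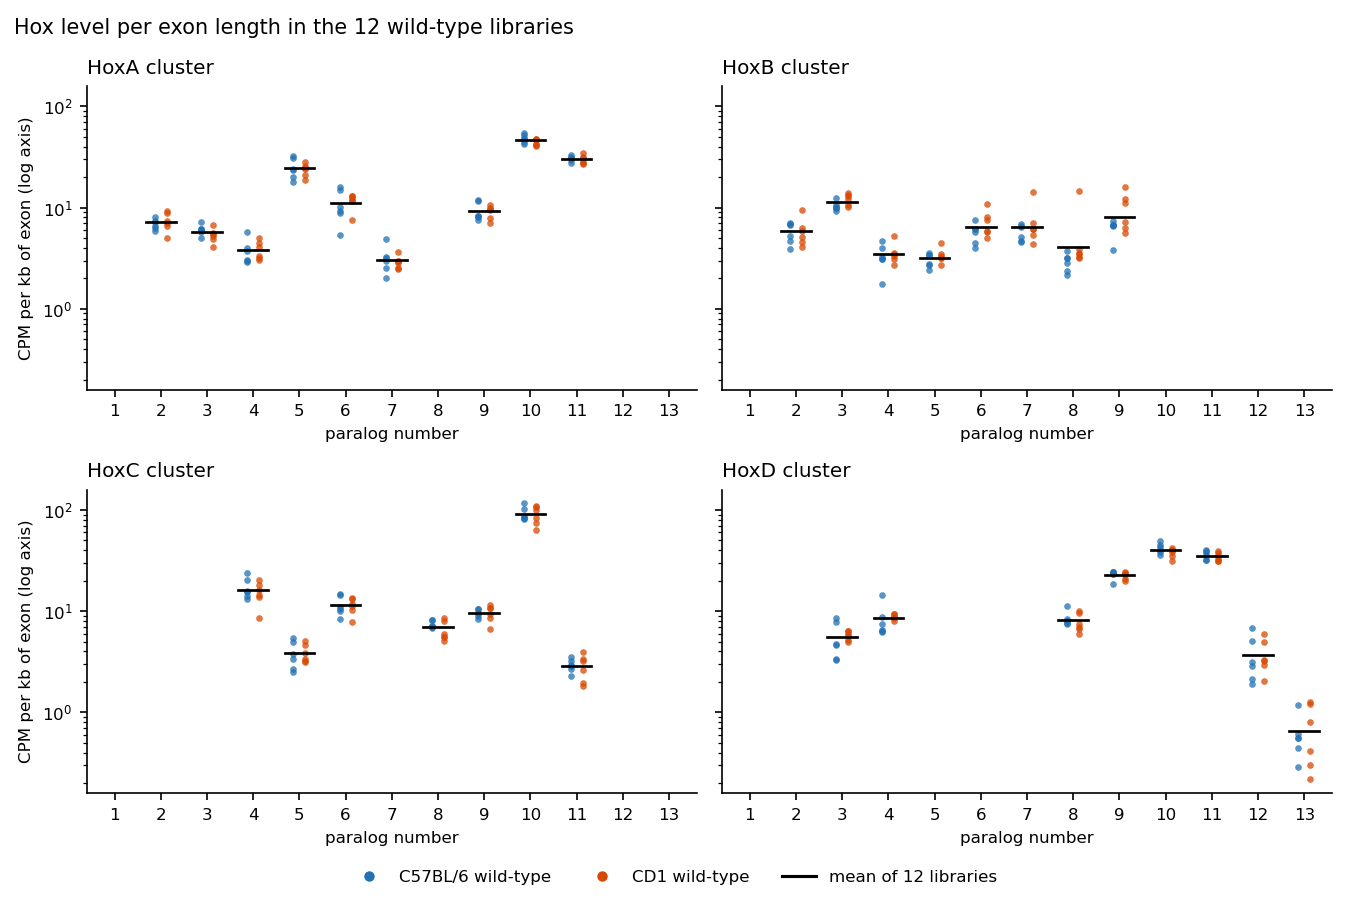
Per-length level of 32 Hox genes in the 12 wild-type libraries, as CPM per kb of exon length on a log axis against paralog number, with one panel a cluster; points are libraries coloured by strain and the bar is their mean. Paralogs 10 of HoxA, HoxC and HoxD have the highest means, at 46.3, 90.8 and 39.9 CPM per kb, and Hoxd13 the lowest at 0.652.

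Stabilised beta-catenin went with lower RNA of anterior and HoxB genes, while the posterior genes, paralogs 9 to 13, went both ways. In the mean of both stages, SO differed from CD1 wild-type in 15 of 33 Hox genes by limma at an adjusted p under 0.05, with 12 lower and 3 higher, against 18.5% of all genes called (10.2% higher and 8.32% lower). The median log2 difference over the 33 genes was -0.28, against -0.001 over all genes, and 27 of 33 were negative. Paralogs 1 to 8 made up 21 of the genes: 21 of 21 were negative, 10 fell, 0 rose and the median was -0.50. Of the 12 genes of paralogs 9 to 13, 3 rose, 2 fell and the median was 0.03. In HoxB 8 of 8 genes were negative and 6 fell (median -0.74), in HoxC 7 of 7 were negative and 4 fell (median -0.30), in HoxA 1 rose and 2 fell (median -0.21), and in HoxD 2 of 8 rose and 0 fell (median 0.07). Without the library that stood apart the count was 14, 2 higher and 12 lower, against 18.5% of all genes, the median was -0.31, and the medians by cluster were -0.26 in HoxA, -0.60 in HoxB, -0.35 in HoxC and 0.05 in HoxD. Paralogs 1 to 8 then had 21 of 21 negative, 11 lower and a median of -0.41, and paralogs 9 to 13 had 2 higher, 1 lower and a median of 0.02.

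**Figure D2:**
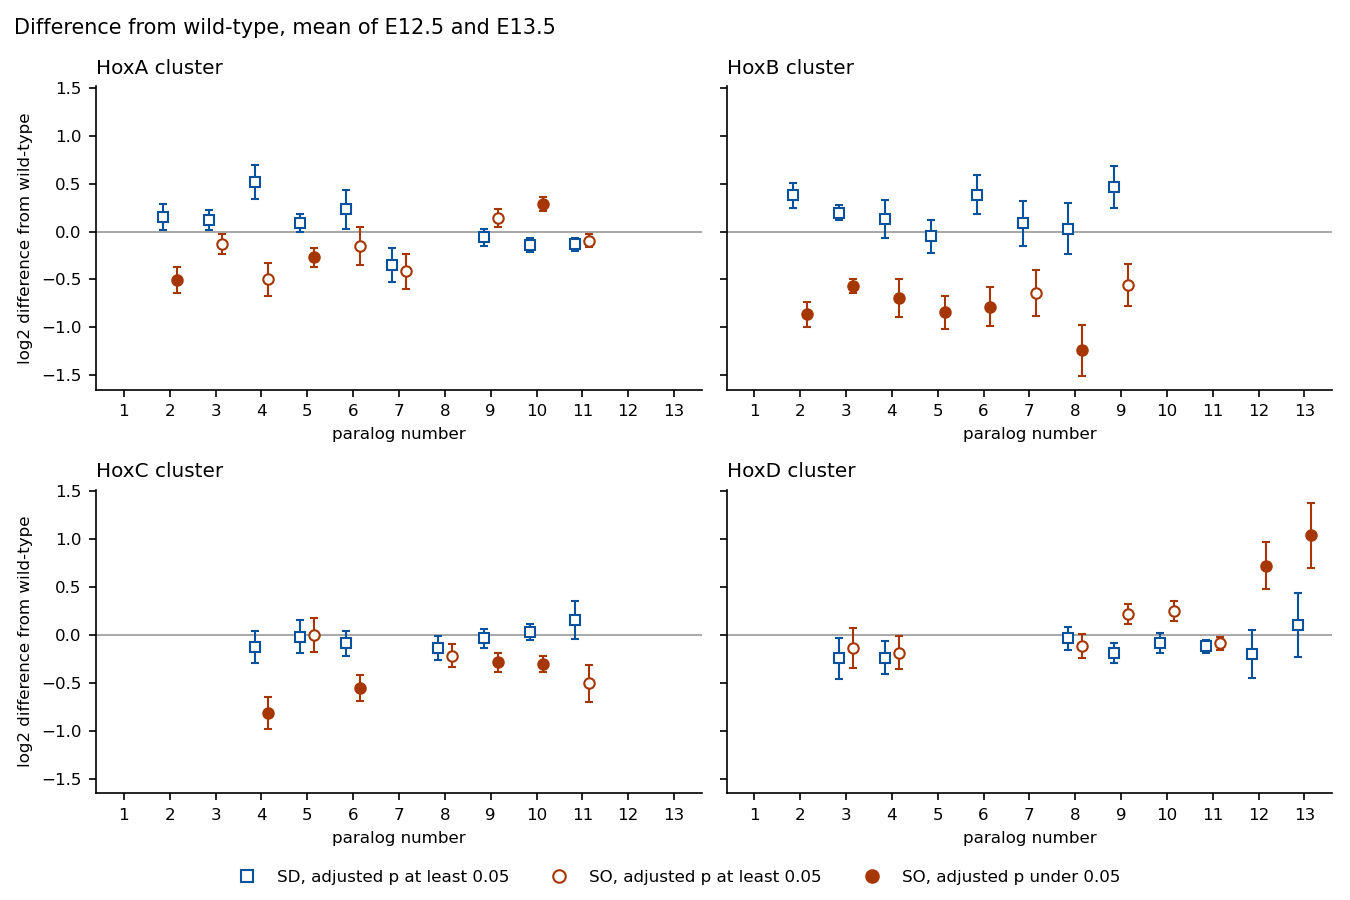
Log2 difference from wild-type of the same strain for 32 Hox genes, as the mean of both stages with its standard error; squares are SD, circles are SO and filled symbols have a limma adjusted p under 0.05. All 8 HoxB circles lie below 0, the posterior HoxD genes Hoxd12 and Hoxd13 lie above it, and 0 of the 32 squares are filled.

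With all libraries in the fit, the largest fall among the 33 genes in the SO mean was that of Hoxb8 (chr11:96281905-96285315, plus strand), a trunk gene of the middle of HoxB. Its log2 CPM was 1.93, 1.88 and 2.20 in the SO libraries at E12.5 against 3.10, 3.38 and 3.22 in wild-type. At E13.5 it was 2.33, 2.38 and 3.12 against 5.26, 3.23 and 3.07. The groups did not overlap at E12.5, while at E13.5 SO replicate 3 lay above wild-type replicate 3 and below replicate 2, and the wild-type value of 5.26 belongs to the library that stood apart. The mean difference was -1.24 ± 0.27 (SE), a 2.36-fold lower level (limma adjusted p = 0.00166), and -0.89 without that library (limma adjusted p = 0.00105), where Hoxc4 fell more (-0.95). At E13.5 alone it was -1.24 (limma adjusted p = 0.0271), and -0.54 without that library (limma adjusted p = 0.191), so the fall at that stage rests on it.

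The promoter sequences of 4 Hox genes are shown here: Hoxb8 with the largest fall and Hoxd13 with the largest rise when all libraries are in the fit, Hoxa2 as an anterior gene that fell, and Hoxd8 as a gene of the same clusters that was not called. Each is the 250 bases before the start of transcription from the RefSeq table for GRCm38.p6, read 5′ to 3′ on the strand of the gene. Capitals mark matches on either strand to CTTTGAT (the TCF/LEF site), TGATTNAT (a Hox-Pbx site) or TTTATNG (a Cdx site). The windows are chr11:96281655-96281904 for Hoxb8, chr2:74667975-74668224 for Hoxd13, chr6:52164832-52165081 on the minus strand for Hoxa2 and chr2:74704365-74704614 for Hoxd8, the other 3 being on the plus strand.
Hoxb8: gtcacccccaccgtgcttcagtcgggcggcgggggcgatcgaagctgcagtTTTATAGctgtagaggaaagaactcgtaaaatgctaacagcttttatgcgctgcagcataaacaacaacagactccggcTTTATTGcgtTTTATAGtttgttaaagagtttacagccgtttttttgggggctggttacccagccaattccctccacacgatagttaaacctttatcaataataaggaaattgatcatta
Hoxd13: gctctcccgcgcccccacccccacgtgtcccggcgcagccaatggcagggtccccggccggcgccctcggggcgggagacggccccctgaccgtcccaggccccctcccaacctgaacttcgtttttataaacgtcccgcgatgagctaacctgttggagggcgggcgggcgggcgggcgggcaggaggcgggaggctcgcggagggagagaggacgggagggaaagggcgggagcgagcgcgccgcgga
Hoxa2: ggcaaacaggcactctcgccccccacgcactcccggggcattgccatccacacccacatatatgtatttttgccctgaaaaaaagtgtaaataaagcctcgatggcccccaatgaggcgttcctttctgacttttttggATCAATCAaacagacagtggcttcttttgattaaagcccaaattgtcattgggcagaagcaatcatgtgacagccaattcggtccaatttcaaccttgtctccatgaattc
Hoxd8: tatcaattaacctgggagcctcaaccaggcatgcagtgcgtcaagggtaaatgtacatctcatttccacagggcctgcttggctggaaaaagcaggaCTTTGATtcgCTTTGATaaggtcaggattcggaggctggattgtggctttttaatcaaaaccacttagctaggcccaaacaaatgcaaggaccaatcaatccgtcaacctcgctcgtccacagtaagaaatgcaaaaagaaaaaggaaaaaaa

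Hoxb8 held 3 matches to the Cdx letters, Hoxa2 held 1 to the Hox-Pbx letters, Hoxd8 held 2 to the TCF/LEF letters, and Hoxd13, with a GC content of 74.4% against 44.4% in Hoxb8, held none of the 3. The RefSeq table gave 21 promoters for 19 of the 33 members. The TCF/LEF letters were in 4.8% of these promoters, that of Hoxd8 alone, against 3.21% of the 32851 promoters in the table. Windows of Hoxa5, Hoxb4 and Hoxc4, which fell too and are not shown, held none of the 3. Other members that were not called, among them Hoxa3, Hoxa9 and Hoxd9, have windows with none of the 3, so Hoxd8 does not stand for them. The Hox-Pbx letters were in 9.5%, those of Hoxa2 and Hoxd11, against 2.82% of all, and the Cdx letters in 9.5%, those of Hoxb8 and Hoxd4, against 9.81% of all. These are matches of letters within 1 short window and not measured sites.

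Hoxb2, Hoxb3, Hoxb4, Hoxb5 and Hoxb6, which run from the 3′ end of the cluster towards Hoxb8 and include genes known for patterning the hindbrain and neck, fell as well. Hoxb3 (chr11:96323326-96347930), the highest HoxB gene, had a log2 CPM of 5.23, 5.45 and 5.36 in SO at E12.5 against 5.89, 5.81 and 5.69 in wild-type, and 4.84, 4.92 and 4.90 at E13.5 against 5.78, 5.50 and 5.44. All 6 SO libraries lay below their wild-type libraries, and the mean difference was -0.57 ± 0.08 (SE, limma adjusted p = 5.6e-06). Hoxb2 (chr11:96350525-96354012) had 3.81, 3.73 and 3.32 at E12.5 against 3.83, 4.35 and 4.0, and 3.22, 3.21 and 3.41 at E13.5 against 5.06, 4.18 and 4.45. Its groups were separate at both stages, narrowly at E12.5, and the difference was -0.44 at E12.5 (limma adjusted p = 0.167) and -1.29 at E13.5 (limma adjusted p = 2.46e-05). Without the library that stood apart the mean difference was -0.52 for Hoxb3 (limma adjusted p = 1.78e-05) and -0.74 for Hoxb2 (limma adjusted p = 7.06e-05). The annotation places Hoxb3os, a transcript of the opposite strand, over 52.93% of the exon length of Hoxb3 and 27.32% of that of Hoxb2, and since the strand of counting is not given, reads of the pair cannot be told apart.

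Hoxb5 had a log2 CPM of 2.60, 1.75 and 2.42 in SO at E12.5 against 3.14, 3.14 and 3.28 in wild-type, and 2.77, 2.48 and 2.26 at E13.5 against 3.65, 3.21 and 2.93. The groups did not overlap at either stage, and the mean difference was -0.84 ± 0.17 (SE, limma adjusted p = 0.000862). Hoxb4 had 2.10, 2.43 and 2.20 against 3.01, 3.09 and 3.17 at E12.5, and 3.24, 2.09 and 2.81 against 3.74, 3.19 and 2.83 at E13.5. Hoxb6 had 3.32, 2.83 and 2.64 against 3.89, 3.31 and 3.99 at E12.5, and 3.15, 2.51 and 3.49 against 4.43, 3.50 and 3.52 at E13.5. For Hoxb4 the groups were separate at E12.5 and overlapped at E13.5, and for Hoxb6 the order was the reverse. The mean differences were -0.69 ± 0.19 for Hoxb4 (SE, limma adjusted p = 0.0136) and -0.78 ± 0.20 for Hoxb6 (SE, limma adjusted p = 0.00758). With the library that stood apart left out they were -0.75 for Hoxb5 (limma adjusted p = 0.00333), -0.57 for Hoxb4 (0.0452) and -0.63 for Hoxb6 (0.0264). Hoxb7 and Hoxb9, the members at the 5′ side, differed by -0.64 (limma adjusted p = 0.0641) and -0.56 (limma adjusted p = 0.0788) and were not called, and without the library that stood apart, in which both were highest, these values were -0.40 and -0.33.

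Summed over its 8 genes, the HoxB level was 95.0, 98.8 and 89.0 CPM in the SO libraries at E12.5 and 93.1, 80.7 and 104.5 CPM at E13.5. The CD1 wild-type libraries had 142.7, 154.5 and 148.0 CPM at E12.5 and 236.7, 125.1 and 123.6 CPM at E13.5. Each SO library was below each CD1 wild-type library of either stage. In the other line the SD libraries had 135.1 to 154.4 CPM at E12.5 and 141.6 to 159.9 CPM at E13.5, and the C57BL/6 wild-type libraries 104.4 to 138.2 and 115.5 to 137.5 CPM, so that SD lay above wild-type at E13.5 and overlapped it at E12.5.

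**Figure D3:**
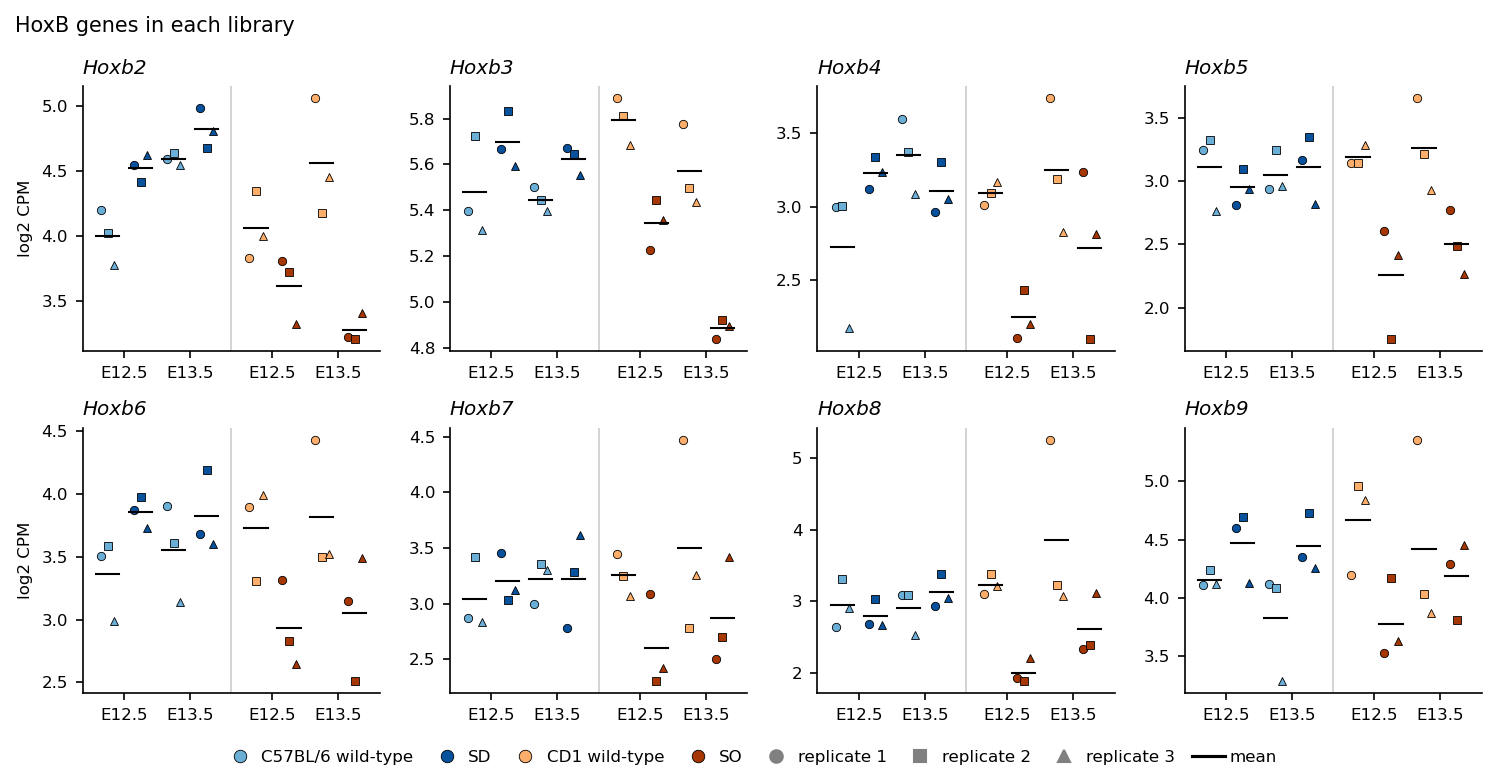
Log2 CPM of the 8 measured HoxB genes in each of the 24 libraries, by group. For Hoxb3 and Hoxb5 all SO libraries lie below the CD1 wild-type libraries of their stage, and in Hoxb7, Hoxb8 and Hoxb9 the highest point of the CD1 wild-type group at E13.5 is replicate 1, the library that stood apart (4.47, 5.26 and 5.35).

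In HoxC the largest fall was that of Hoxc4 (chr15:103018934-103036852), the gene at the 3′ end of the measured cluster. It had a log2 CPM of 4.72, 4.87 and 4.69 in SO at E12.5 against 5.71, 5.55 and 5.13 in wild-type, and 3.70, 4.17 and 4.43 at E13.5 against 4.46, 5.37 and 5.22. The groups were separate at both stages, with wild-type replicate 1 at E13.5, the library that stood apart, nearest to SO. The mean difference was -0.81 ± 0.17 (SE, limma adjusted p = 0.000923), and -0.95 without that library (limma adjusted p = 7.06e-05). Hoxc6, of the thoracic group, had 4.34, 4.11 and 3.99 against 4.82, 4.76 and 5.02 at E12.5, and 4.48, 3.94 and 4.26 against 4.23, 4.98 and 4.63 at E13.5. It overlapped only at E13.5, where the lowest wild-type value is again that of replicate 1, and its mean difference was -0.55 ± 0.13 (SE, limma adjusted p = 0.00406), and -0.65 with that library left out (limma adjusted p = 0.000682). Hoxc9 had 4.02, 4.35 and 4.64 against 4.72, 4.81 and 4.69 at E12.5, and 4.10, 4.25 and 4.06 against 4.39, 4.50 and 4.02 at E13.5. Its mean difference of -0.28 ± 0.10 (SE, limma adjusted p = 0.0487) was lost in 11 of 20 alternatives, among them that without the library that stood apart (limma adjusted p = 0.0955).

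Hoxc8 was called at E13.5 alone: its log2 CPM there was 3.76, 3.88 and 3.42 in SO against 3.97, 4.51 and 4.61 in wild-type, a difference of -0.68 (limma adjusted p = 0.00834). At E12.5 Hoxc8 had 4.05, 4.39 and 4.18 in SO against 4.07, 3.83 and 3.97. The difference of its 2 effects was -0.92 (limma adjusted p = 0.0602), and -1.12 without the library that stood apart (limma adjusted p = 0.00965).

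In HoxA, Hoxa2 (chr6:52162417-52164831), known for patterning the hindbrain and pharyngeal arches, and Hoxa5, known for the lung and neck, fell. Hoxa2 had a log2 CPM of 3.38, 3.56 and 3.19 in SO at E12.5 against 4.06, 3.72 and 3.98 in wild-type, and 3.35, 2.80 and 2.80 at E13.5 against 3.15, 3.66 and 3.54. The groups were separate at E12.5 and overlapped at E13.5 through wild-type replicate 1, and the mean difference was -0.50 ± 0.14 (SE, limma adjusted p = 0.0107), and -0.58 without that replicate (limma adjusted p = 0.00437). Hoxa5 had 5.41, 5.47 and 5.34 against 5.73, 5.54 and 5.51 at E12.5, and 5.09, 5.03 and 4.89 against 5.14, 5.60 and 5.32 at E13.5. All 6 SO values were below those of wild-type, by small margins, and the mean difference was -0.27 ± 0.09 (SE, limma adjusted p = 0.0479). That call was lost in 12 of 20 alternatives, with an adjusted p of up to 0.142 in limma, and it held without the library that stood apart (-0.32, limma adjusted p = 0.0185). Hoxa4 lay next to the threshold, at -0.50 (limma adjusted p = 0.0513), and was called without the library that stood apart (-0.57, limma adjusted p = 0.0328).

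Paralogs 10, which hold the most Hox RNA in these cells, did not move as a group. Hoxa10 rose: its log2 CPM was 7.54, 7.58 and 7.69 in SO at E12.5 against 7.24, 7.27 and 7.12 in wild-type, and 7.55, 7.22 and 7.23 at E13.5 against 7.10, 7.27 and 7.07. Its groups were separate at E12.5 and overlapped at E13.5, and the mean difference was 0.29 ± 0.07 (SE), a 1.22-fold higher level (limma adjusted p = 0.00605), and 0.28 without the library that stood apart (limma adjusted p = 0.0135). Hoxc10 fell: it had 7.51, 7.35 and 7.39 at E12.5 against 7.68, 7.58 and 7.70, and 6.92, 6.58 and 6.79 at E13.5 against 6.92, 7.32 and 7.15. Its groups touched at E13.5 through wild-type replicate 1, and the mean difference was -0.30 ± 0.09 (SE), a 1.23-fold lower level (limma adjusted p = 0.0156), and -0.35 without that replicate (limma adjusted p = 0.00462). Hoxd10 had 6.42, 6.22 and 6.41 against 6.19, 6.11 and 6.01 at E12.5, and 6.43, 6.40 and 6.23 against 5.82, 6.20 and 6.25 at E13.5, a mean difference of 0.25 ± 0.10 that was not called (SE, limma adjusted p = 0.0916). Hoxc10 shares 8.7% of its exon length with Hoxc5 in the annotation.

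Of paralogs 11, whose joint loss stops the ureteric bud from forming in mouse genetics, 0 of 3 were called by limma in the SO mean, with 1, Hoxc11, at an unadjusted p under 0.05 and 0 with voom weights. Hoxa11 had a log2 CPM of 5.94, 5.89 and 5.88 in SO at E12.5 against 6.19, 5.94 and 6.01 in wild-type, and 6.08, 6.09 and 6.13 at E13.5 against 6.16, 6.32 and 5.97. Hoxd11 had 7.08, 6.98 and 7.02 against 7.21, 7.04 and 7.11 at E12.5, and 7.22, 7.06 and 7.17 against 7.03, 7.36 and 7.30 at E13.5. The groups of both genes overlapped at one stage or both. The mean difference was -0.10 for Hoxa11 (95% interval -0.23 to 0.04, limma adjusted p = 0.361) and -0.09 for Hoxd11 (95% interval -0.23 to 0.06, limma adjusted p = 0.455), so changes beyond these bounds lie outside the intervals. Hoxc11, the lowest of the 3, had 1.80, 2.39 and 2.64 against 2.70, 2.42 and 2.99 at E12.5, and 1.99, 1.58 and 1.37 against 2.00, 2.78 and 1.89 at E13.5. It differed by -0.50 (95% interval -0.91 to -0.10) with a limma adjusted p of 0.0755, and its unadjusted interval does not hold 0. Hoxa11os, on the opposite strand, covers 34.98% of the exon length of Hoxa11.

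The most posterior genes, Hoxd12 and Hoxd13, which are known for the digits and the genital bud, rose from low levels. Hoxd13 (chr2:74668310-74671599) had a log2 CPM of 2.40, 1.75 and 2.29 in SO at E12.5 against 1.02, 1.68 and 1.60 in wild-type, and 0.43, 1.25 and 1.45 at E13.5 against -0.81, -0.30 and 0.14. These values rest on 32, 21 and 32 reads against 19, 32 and 29 reads, and on 16, 50 and 34 reads against 9, 5 and 8 reads. All SO libraries lay above their wild-type libraries, and the mean difference was 1.04 ± 0.34 (SE, limma adjusted p = 0.0324). Hoxd12 (chr2:74675013-74677705) had 4.01, 3.95 and 3.41 at E12.5 against 3.65, 3.06 and 3.03, and 3.88, 3.88 and 4.19 at E13.5 against 3.93, 2.90 and 2.40. Its groups overlapped at both stages, at E13.5 through wild-type replicate 1 alone, and the mean difference was 0.72 ± 0.25 (SE, limma adjusted p = 0.0425). Without the library that stood apart Hoxd13 differed by 0.92 and was not called (limma adjusted p = 0.0753), while Hoxd12 differed by 0.94 (limma adjusted p = 0.00459) and so had the larger difference of the pair. The Hoxd12 call was lost in 11 of 20 alternatives (limma adjusted p up to 0.132) and the Hoxd13 call in 7 of 19 (limma adjusted p up to 0.0811).

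**Figure D4:**
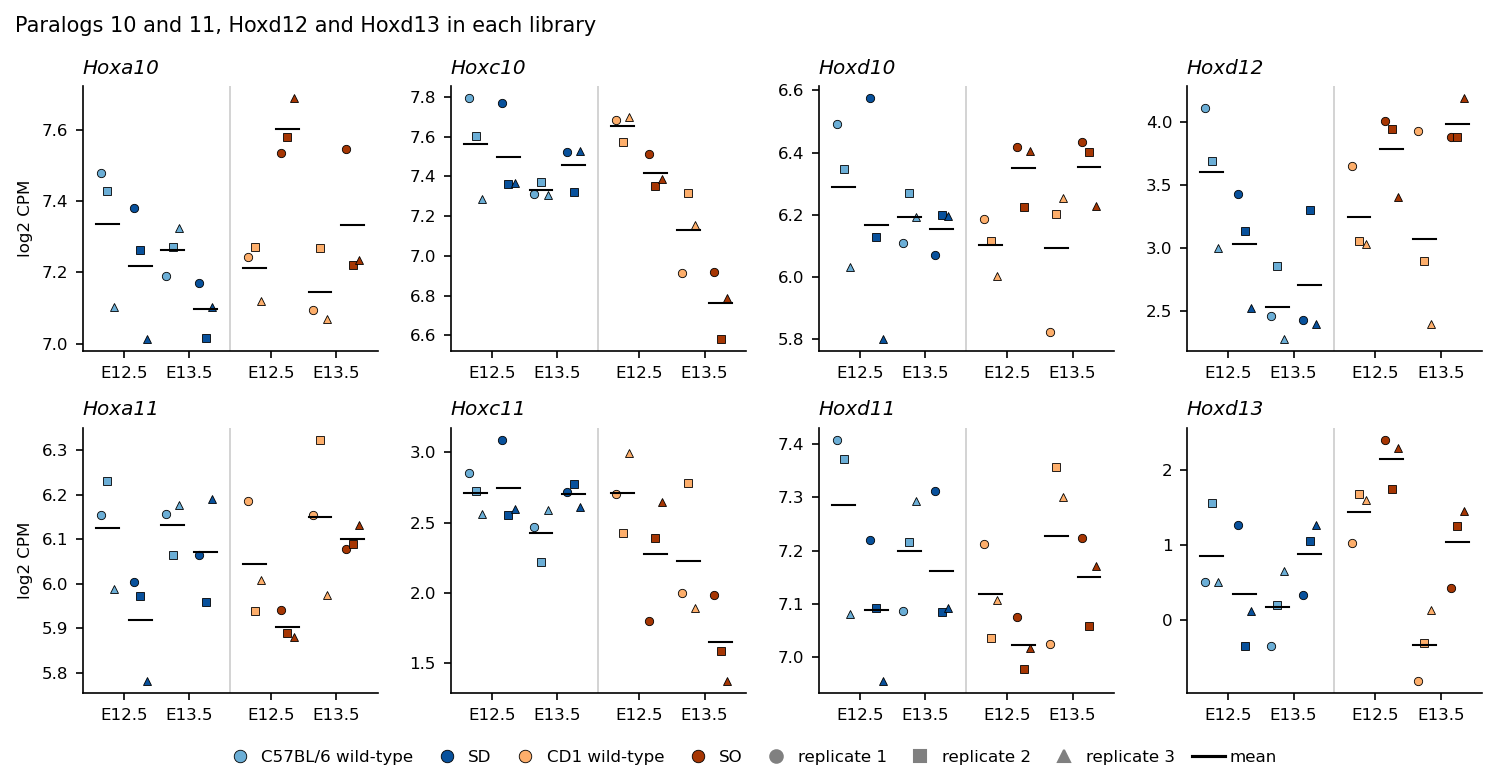
Log2 CPM of 8 posterior Hox genes (Hoxa10, Hoxc10, Hoxd10, Hoxd12, Hoxa11, Hoxc11, Hoxd11 and Hoxd13) in each of the 24 libraries, by group. Hoxa11 and Hoxd11 stay between 5.78 and 7.41 over all groups, while all SO points of Hoxd13 lie above the CD1 wild-type points of their stage.

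These differences changed the make-up of the Hox RNA, given here as shares with no test. Paralogs 1 to 8 held 28.9% of the per-length Hox level in SO at E12.5 (27.8% to 30.1%) and 28.6% at E13.5 (27.7% to 29.8%). The CD1 wild-type libraries had 34.3% (33.9% to 34.6%) and 36.3% (34.7% to 38.4%). Every SO library was below every CD1 wild-type library. Paralogs 9 to 11 held 69.4% and 69.5% in SO against 64.7% and 62.8% in wild-type, and paralogs 12 and 13 held 1.65% and 1.87% against 1.03% and 0.921%. In SD the share of paralogs 1 to 8 was 36.1% (35.3% to 36.7%) and 34.6% (31.9% to 36.9%), and overlapped that of C57BL/6 wild-type, 34.7% (33.6% to 36.6%) and 32.8% (32.2% to 33.6%).

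Taken at single stages, fewer Hox genes were called in SO. At E12.5 limma called 5 of 33, against 8.16% of all genes (5.17% higher and 3% lower), with Hoxa10 higher and Hoxb3, Hoxb5, Hoxb8 and Hoxc6 lower. At E13.5 it called 7, each lower, against 15.4% of all genes called and 6.83% called lower: Hoxb2, Hoxb3, Hoxb5, Hoxb8, Hoxc4, Hoxc8 and Hoxc10. Without the library that stood apart the count was 8 at E12.5 (1 higher and 7 lower, 9.34% of all genes), to which that library adds only through the pooled spread, and 10 at E13.5 (1 higher and 9 lower, 16.6% of all genes). Libraries of SO and wild-type did not overlap for 5 higher and 13 lower Hox genes at E12.5, against 17.1% and 14% of all genes, and for 2 higher and 9 lower at E13.5, against 14.8% and 13.1%. With the library that stood apart left out the E13.5 counts were 4 higher and 13 lower, against 22.2% and 21.6% of all genes. Hoxb2 and Hoxb3 at E13.5 kept their calls in 14 of 14 alternatives, while Hoxb8 at E12.5 was lost in 10 of 14, among them each that left out a library (limma adjusted p up to 0.378). The difference of the SO effect between stages was called by limma for 0 of 33 genes, against 1.33% of all genes, with 2 at an unadjusted p under 0.05 and 0 with voom weights. It was called for Hoxc8 alone without the library that stood apart.

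Deficient beta-catenin was not followed by a called change in any of the 33 genes. In the SD mean of stages limma called 0 of 33, against 7.17% of all genes, with 4 at an unadjusted p under 0.05 and 0 with voom weights. At E12.5 it called 0, against 1.72% of all genes (2 unadjusted, 0 with voom weights), and at E13.5 0, against 3.4% (3 unadjusted, 0 with voom weights). The median log2 difference was -0.03. HoxB had 7 of 8 genes positive with a median of 0.16, while HoxC had 2 of 7 and HoxD 1 of 8 positive. The 4 genes with an unadjusted p under 0.05 were Hoxa4, Hoxb2, Hoxb3 and Hoxb9.

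Hoxb2 had a log2 CPM of 4.54, 4.41 and 4.62 in SD at E12.5 against 4.20, 4.02 and 3.78 in C57BL/6 wild-type, and 4.98, 4.68 and 4.81 at E13.5 against 4.59, 4.64 and 4.54. All 6 SD libraries were above their wild-type libraries, with a mean difference of 0.38 ± 0.13 (SE, limma adjusted p = 0.0893), and the fit to the 12 libraries of this line alone called it (limma adjusted p = 0.0277). Hoxa4 had 3.51, 2.90 and 2.94 against 3.21, 2.59 and 2.69 at E12.5, and 2.81, 3.10 and 3.12 against 2.26, 2.22 and 2.28 at E13.5, a difference of 0.52 ± 0.18 (SE, limma adjusted p = 0.0805). It was separate from wild-type at E13.5 only. Hoxb8, which fell in SO, had 2.68, 3.03 and 2.67 in SD against 2.64, 3.31 and 2.91 at E12.5, and 2.94, 3.38 and 3.05 against 3.09, 3.08 and 2.53 at E13.5. Its groups overlapped at both stages, and its difference was 0.03 (95% interval -0.52 to 0.58), with a sign that turned in 4 of 20 alternatives. SD and wild-type libraries did not overlap for 3 higher and 0 lower Hox genes at E12.5, the 3 being of HoxB, against 8.64% and 7.35% of all genes, and for 6 higher and 3 lower at E13.5, against 10.1% and 11.1%.

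Paralogs 10 and 11 were among the genes not called in SD. Hoxa10 had a log2 CPM of 7.38, 7.26 and 7.01 in SD at E12.5 against 7.48, 7.43 and 7.10 in wild-type, and 7.17, 7.02 and 7.10 at E13.5 against 7.19, 7.27 and 7.33, a mean difference of -0.14 (95% interval -0.29 to 0.01). Hoxc10 had 7.77, 7.36 and 7.37 against 7.79, 7.61 and 7.29, and 7.52, 7.32 and 7.53 against 7.31, 7.37 and 7.30, a difference of 0.03 (95% interval -0.15 to 0.21). Hoxd10 had 6.58, 6.13 and 5.80 against 6.49, 6.35 and 6.03, and 6.07, 6.20 and 6.20 against 6.11, 6.27 and 6.19, a difference of -0.08 (95% interval -0.29 to 0.13). Hoxa11 had 6.00, 5.97 and 5.78 against 6.15, 6.23 and 5.99, and 6.06, 5.96 and 6.19 against 6.16, 6.07 and 6.18, a difference of -0.13 (95% interval -0.27 to 0.003), and Hoxd11 differed by -0.12 (95% interval -0.26 to 0.03). Hoxc11 had 3.09, 2.56 and 2.60 against 2.85, 2.72 and 2.56, and 2.72, 2.77 and 2.61 against 2.47, 2.22 and 2.59, a difference of 0.16 (95% interval -0.24 to 0.56). Each of these SD intervals spans 0, and the groups of the 6 genes overlapped at one stage or both.

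The SO and SD effects were compared directly, each against its own wild-type, in a contrast added after the data were seen. Limma called 11 of 33 genes, 1 higher and 10 lower in SO, against 17.9% of all genes (9.87% higher and 8.05% lower). In HoxB 7 of 8 genes were called, with a median of -0.92, and Hoxb2 differed by -1.24 ± 0.19 (SE, limma adjusted p = 3.73e-05). Hoxb8 differed by -1.27 ± 0.38 (SE, limma adjusted p = 0.0219), Hoxb6 by -1.17 ± 0.29, Hoxb9 by -1.02 and Hoxa4 by -1.02. Hoxa10 was the gene that was higher, by 0.43 ± 0.10 (SE, limma adjusted p = 0.00454). Strain goes with genotype in this contrast. The count was 14 without the library that stood apart (2 higher and 12 lower, against 19.1% of all genes). The HoxB median and the differences of single genes in this contrast are given only with that library, in which HoxB RNA was high.

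Between wild-type groups limma called between 0 and 2 of the 33 genes. From E12.5 to E13.5 Hoxa5 fell in C57BL/6, from a log2 CPM of 5.85, 5.92 and 5.51 to 5.25, 5.08 and 5.47 (-0.49, limma adjusted p = 0.0388), the 1 called gene of 33 against 3.96% of all genes (1.88% lower), with 4 called when E12.5 replicate 3 was left out. In CD1, Hoxc10 fell by 0.52 on the log2 scale (limma adjusted p = 0.0134) and Hoxd13 by 1.75 (limma adjusted p = 0.0324), 2 of 33 against 5.42% of all genes (3% lower). Neither was called in CD1 without the library that stood apart (limma adjusted p = 0.0574 and 0.0887) and Hoxc8 was called higher, by 0.60 (limma adjusted p = 0.0425). Between strains limma called 0 of 33 genes, against 4.46% of all genes, with 3 at an unadjusted p under 0.05 and 0 with voom weights. The 8 HoxB genes were all lower in C57BL/6, with a median of -0.24 and a smallest limma adjusted p of 0.097. The library that stood apart enters this contrast, and the HoxB median is not given without it. At E13.5 the summed HoxB level was 236.7 CPM in that library and 125.1 and 123.6 CPM in CD1 replicates 2 and 3. C57BL/6 had 115.5 to 137.5 CPM at that stage. At E12.5 it had 104.4 to 138.2 CPM, against 142.7 to 154.5 CPM in CD1. The difference of the SD effect between stages was called by limma for 0 of 33 and 0% of all genes, with 0 at an unadjusted p under 0.05 and 0 with voom weights.

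Some of the 9 listed TALE partners of Hox proteins moved in the SO line too. Of the partner genes reported here limma called Meis1, Meis2 and Meis3 lower and Pbx3 higher in the SO mean of stages. Other members of the list were not called, and over all genes 10.2% were called higher and 8.32% lower. Meis2, whose protein joins Pbx and Hox proteins on DNA, had a log2 CPM of 9.24, 9.24 and 9.12 in SO at E12.5 against 9.60, 9.52 and 9.57 in wild-type, and 8.69, 8.56 and 8.45 at E13.5 against 8.84, 9.41 and 9.25. All 6 SO libraries were below wild-type, and the difference was -0.48 ± 0.09 (SE, limma adjusted p = 0.00029). Meis1, a stromal marker, had 8.40, 8.32 and 8.34 against 8.85, 8.70 and 8.70 at E12.5, and 7.79, 7.86 and 7.59 against 7.76, 8.55 and 8.39 at E13.5. Meis1 overlapped at E13.5 through wild-type replicate 1 alone, and differed by -0.44 ± 0.09 (SE, limma adjusted p = 0.00166).

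Meis3 had a log2 CPM of 4.95, 4.84 and 5.07 in SO at E12.5 against 5.50, 5.57 and 5.64, and 4.46, 4.19 and 4.53 at E13.5 against 5.00, 5.11 and 5.08, a difference of -0.65 ± 0.13 (SE, limma adjusted p = 0.00116). Pbx3 went the other way, with 6.69, 6.82 and 6.59 against 6.50, 6.41 and 6.43 at E12.5, and 6.74, 6.45 and 6.26 against 5.93, 6.03 and 5.96 at E13.5 (0.38 ± 0.09, SE, limma adjusted p = 0.00225). The groups of both genes were separate at both stages, and each of these 4 partner calls held in 20 of 20 alternatives, that without the library that stood apart included. In SD 1 of 9 partners was called, against 7.17% of all genes. It was Pknox2, which had 5.09, 5.18 and 5.35 against 4.58, 4.98 and 4.83 at E12.5, and 5.22, 5.23 and 5.31 against 4.87, 4.72 and 4.63 at E13.5 (0.46 ± 0.08, SE, limma adjusted p = 0.000925). Its SD libraries all lay above wild-type.

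**Figure D5:**
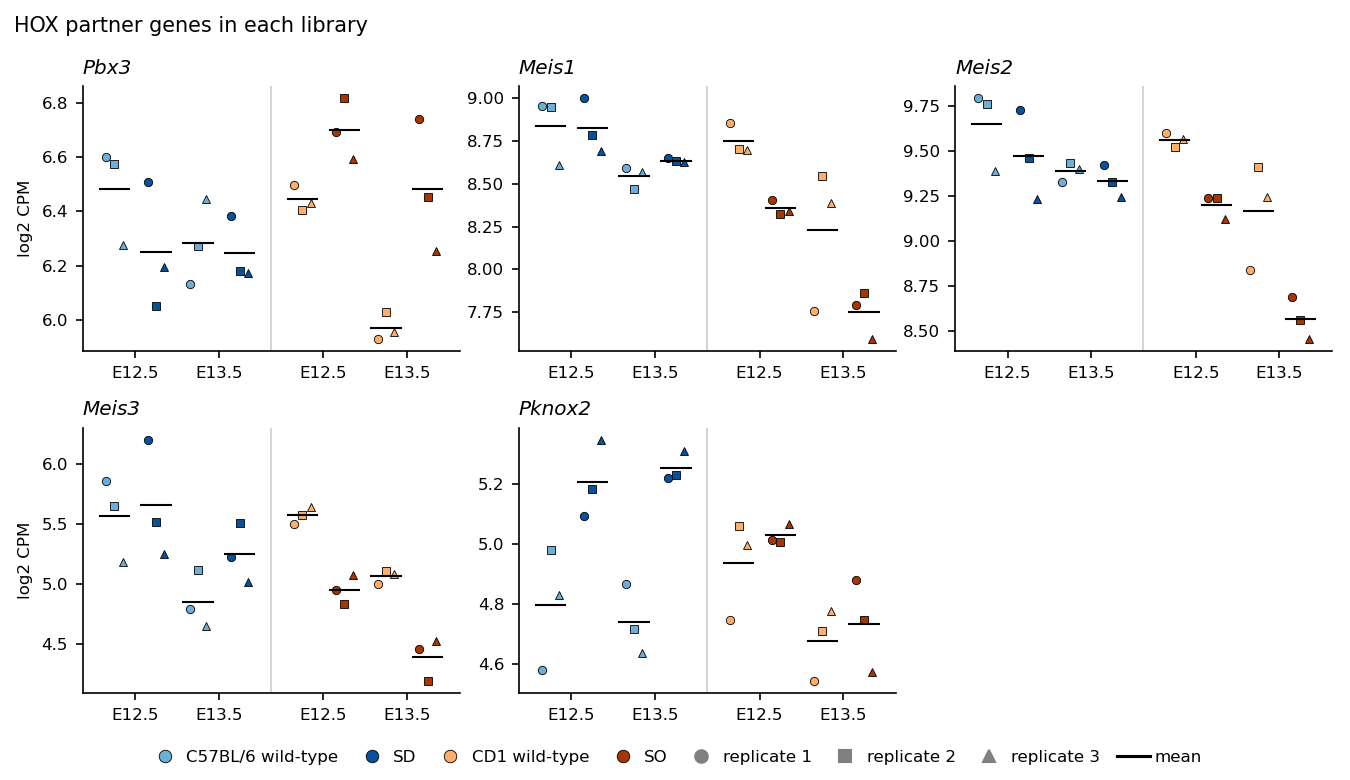
Log2 CPM of the Hox partner genes Pbx3, Meis1, Meis2, Meis3 and Pknox2 in each of the 24 libraries, by group. Meis2 and Meis3 are lower and Pbx3 is higher in all SO libraries than in CD1 wild-type libraries of the same stage, and Pknox2 is higher in all SD libraries than in C57BL/6 wild-type.

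Of 22 regulators of Hox genes, 20 were in the table, and in SO 4 rose and 1 fell, against 10.2% and 8.32% of all genes. Cdx1, a direct activator of trunk Hox genes, rose by 2.33 ± 0.75 on the log2 scale (SE, limma adjusted p = 0.0308) from a level of at most 23 reads a library, and the call was lost in 6 of 19 alternatives. The Polycomb genes Ezh2 and Bmi1, whose proteins keep silent Hox genes off, rose by 0.26 ± 0.05 (SE, limma adjusted p = 0.000332) and 0.48 ± 0.06 (SE, limma adjusted p = 4.75e-06). The retinoic acid receptor genes went apart: Rarg rose by 0.38 ± 0.08 (SE, limma adjusted p = 0.00129) and Rarb fell by 0.31 on the log2 scale (limma adjusted p = 0.0226), the latter call being lost in 5 of 20 alternatives. In SD, 1 of the 20 regulators was called, against 7.17% of all genes. This was Rarg, higher by 0.36 ± 0.08 (SE, limma adjusted p = 0.00588).

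Among the kidney genes reported here that work with Hox proteins or depend on them, Tcf21 and Osr1 rose and Gdnf, Foxd1, Pax2 and Pax8 fell in SO. Over all genes, 10.2% were called higher and 8.32% lower. Gdnf, the growth factor that draws out the ureteric bud, had a log2 CPM of 5.25, 4.42 and 4.80 at E12.5 against 6.56, 6.32 and 6.48 in wild-type, and 5.02, 4.24 and 4.27 at E13.5 against 6.76, 7.51 and 7.75. The groups were far apart at both stages, with a mean difference of -2.23 (limma adjusted p = 1.75e-10). Foxd1, the stromal regulator, fell by 1.02 on the log2 scale (limma adjusted p = 1.56e-07), Pax8 by 3.60 (limma adjusted p = 0.0027) and Pax2 by 1.92 (limma adjusted p = 0.0425). Pax2 and Pax8 are made in nephron progenitors and ureteric bud, and Pax2 was not called without the library that stood apart (-1.36, limma adjusted p = 0.13). The Pax2 call was lost in 9 of 20 alternatives. The Pax8 call was lost in 1 of 19, with voom weights (limma adjusted p = 0.130). Tcf21 rose by 0.81 (limma adjusted p = 0.000218) and Osr1 by 0.49 (limma adjusted p = 0.0382), the last being lost in 11 of 20 alternatives. In SD 1 of the 11 listed kidney genes was called, against 7.17% of all genes. This was Tcf21, with a log2 difference of -1.37 (limma adjusted p = 1.81e-06).

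Of the 16 nearest measured genes outside the clusters, 4 a cluster, 3 rose and 3 fell in SO, against 10.2% and 8.32% of all genes. On the HoxA flanks Snx10, at 564.9 kb, rose by 1.76 (limma adjusted p = 0.000351), and Skap2 and Hibadh fell by 0.63 and 0.77 on the log2 scale. Lnpk, 88.9 kb beyond the posterior end of HoxD, rose by 0.36 (limma adjusted p = 0.00432). On the flanks of HoxB, Snx11 was called higher, by 0.42 (limma adjusted p = 0.0102), while 6 of 8 HoxB genes fell.

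Some lists of markers of other cells held called genes as well. In the SO mean limma called 4 of 4 markers of ureteral and peripelvic mesenchyme (Tbx18, Acta2, Tbx2 and Tbx3) higher, with a summed level of 421.6 to 448.3 CPM at E12.5 against 281.4 to 318.3 CPM in wild-type, and 593.9 to 829.2 CPM at E13.5 against 170.1 to 240.0 CPM. Of the 10 stromal markers 3 were higher and 6 lower, and Meis1 is on that list as well as among the partners. Of 8 nephron progenitor markers 1 was lower, of 10 ureteric bud markers 1 was higher, of 5 erythroid markers 3 were lower and of 4 neural markers 1 was higher. Of 7 endothelial and 6 macrophage markers 0 were called in the SO mean. These counts stand against 10.2% of all genes called higher and 8.32% called lower, so lists with 1 call are not read as changed. The summed nephron progenitor level was 73.3 to 103.4 CPM in SO at E12.5 against 80.6 to 114.5 CPM, and 72.0 to 130.7 CPM at E13.5 against 109.1 to 436.9 CPM. The summed stromal level was 9766 to 10047 CPM in SO at E12.5 against 11547 to 11837 CPM, and 11328 to 12372 CPM at E13.5 against 9175 to 13345 CPM, with 0 stromal markers at 0 reads in these libraries. At E13.5 the summed macrophage level was 299.9 to 720.6 CPM in SO against 216.6 to 272.3 CPM in wild-type. Endothelial markers summed to 196.7 to 300.4 CPM there against 35.9 to 647.7 CPM, the last in the library that stood apart. At E12.5 both lists overlapped. In SD 5 of 7 endothelial, 6 of 6 macrophage and 3 of 5 erythroid markers were lower, against 7.17% of all genes called. Of 8 nephron progenitor markers 1 was higher in SD. They summed to 153.9 to 242.3 CPM at E12.5 against 90.3 to 103.4, and 217.6 to 274.3 at E13.5 against 123.9 to 139.4. The part of these markers in the Hox differences was not tested.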

How the data were processed

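Messenger RNA of sorted kidney stromal cells was sequenced on an Illumina HiSeq instrument in 24 libraries, and groups were taken from the labels. The values deposited by the authors are log2 CPM after TMM scaling of the library sizes, with 0.5 added to each count. The submitters' processing notes name HISAT2, HTSeq, limma and mm10 without versions, and neither the strand of counting nor a filter on low genes is given there. Whole reads could be recovered from them, with 100% of values within 0.1 of a whole number, and 0 columns of values stayed unmapped.

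Fits used limma 3.58.1 in R 4.3.3, with 8 group means, a mean-variance trend, 16 residual and 6.43 prior degrees of freedom. Genes needed a log2 CPM above 0 in at least 3 libraries, which removed none of 13803. Tests were 2-sided, with Benjamini-Hochberg adjustment over all genes in each of 12 contrasts. Values of every library are given for Hox genes called in the mean of stages whose libraries were separate at one stage or both, for the 3 highest genes per length and for paralogs 10 and 11, and Hoxb7, Hoxb9, Hoxa4, Hoxd12 and Hoxc8, and Hoxb2, Hoxa4 and Hoxb8 in SD, were added after their values were seen. Of the partner, regulator and kidney lists the called genes are named, and some genes are not reported here. The neighbours are the nearest measured genes on either side, and those named were chosen after their values were seen. The Hox genes, lists and marker lists were chosen with earlier results of these data known. The fit was tested on simulated data.

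Alternatives were median-ratio scaling and no scaling, 2 added to each count, other filters on low genes, voom weights, 1 line only, the replicate number as a block and leaving out each library. Positions come from GENCODE M21, where 99.1% of symbols matched, and promoters from RefSeq. Reads carry no molecular identifiers, so repeat reads of 1 molecule cannot be told from reads of separate molecules. The standard errors come from the spread among libraries. Python 3.11.15 with matplotlib 3.10.9 drew the figures.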

Additional observations from a re-analysis of the deposited data

Results flagged for a closer look

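The effect of stabilised beta-catenin on Gdnf, the growth factor that draws out the ureteric bud and a gene downstream of paralogs 11, differed between stages. The difference from CD1 wild-type was -1.63 at E12.5 and -2.83 at E13.5 on the log2 scale, and the difference of these effects was -1.20 (limma adjusted p = 0.0499). It was -1.49 without the wild-type library that stood apart (limma adjusted p = 0.00378).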

How the results depend on the processing

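None of the called differences of Hox genes changed sign under the alternatives run for them. Of the uncalled SD differences, 3 turned sign when 1 library was left out, with ranges of -0.063 to 0.12 for Hoxb8, -0.036 to 0.091 for Hoxc10 and -0.18 to 0.013 for Hoxd10. In the SO mean of stages Hoxa2, Hoxa10, Hoxb2, Hoxb3, Hoxb4, Hoxb5, Hoxb6, Hoxb8, Hoxc4 and Hoxc6 were called in 20 of 20 alternatives. Hoxc10 was lost in 2, without SO E13.5 replicate 2 or CD1 wild-type E13.5 replicate 2 (limma adjusted p up to 0.0528). Hoxa5 was lost with voom weights and without any of the 12 libraries but CD1 wild-type E13.5 replicate 1. Hoxc9 was lost with 1 line only and without any library but SO E12.5 replicate 3, SO E13.5 replicate 2 and the E13.5 wild-type replicate 3 (limma adjusted p up to 0.156). Hoxd12 was lost with voom weights, with no scaling and without any library but SO E12.5 replicate 3 or replicate 1 of either wild-type group (up to 0.132). Hoxd13 was lost without SO E12.5 replicates 1 or 3, SO E13.5 replicates 2 or 3, replicate 1 of either wild-type group or the wild-type replicate 2 at E13.5 (up to 0.0811). Counts of called Hox genes moved with voom weights to 2 in SO at E12.5 and 4 between CD1 stages, with 1 line only to 1 in the SD mean and 3 in SO at E12.5, with a mean log2 CPM above 1 to 1 between CD1 stages, and with no scaling to 1 in the difference of SO effects between stages.

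Leaving out 1 library of the compared groups gave 11 to 14 calls in the SO mean, 1 to 4 at E12.5 (lowest without SO replicate 2, and 8 without the CD1 wild-type E13.5 replicate 1, which enters only through the pooled spread) and 4 to 10 at E13.5 (lowest without SO or wild-type replicate 2, highest without wild-type replicate 1). It gave 0 to 1 in the SD mean, 0 to 0 in SD at E12.5 and at E13.5, 0 to 4 between C57BL/6 stages (highest without E12.5 replicate 3), 0 to 3 between CD1 stages, 0 to 1 between strains, 0 to 0 and 0 to 1 for the stage differences of the SD and SO effects, and 9 to 14 for the SO less the SD effect. Single-stage calls lost without 1 library were, at E12.5, Hoxa10 (SO replicates 2 or 3, wild-type replicate 3, limma adjusted p up to 0.0968), Hoxb3 (SO or wild-type replicate 1, up to 0.0511), Hoxb5 (SO replicate 2, wild-type replicate 3, up to 0.125) and Hoxc6 (SO replicates 2 or 3, wild-type replicate 3, up to 0.0898). At E13.5 they were Hoxb5 (SO replicates 2 or 3, wild-type replicates 1 or 2, up to 0.152), Hoxb8 (SO replicates 1 or 2, wild-type replicate 1, up to 0.191), Hoxc4 (SO replicate 1, wild-type replicate 2, up to 0.0633), Hoxc8 (replicate 3 of either, up to 0.0616) and Hoxc10 (replicates 2 or 3 of either, up to 0.205). Hoxa5 between C57BL/6 stages was lost in 6 of 14 alternatives (up to 0.181). In the SO less the SD effect, Hoxb4 was lost in 15 and Hoxc4 in 19 of 31 alternatives.

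Replicate numbers did not pair the libraries throughout: deviations of libraries sharing a number correlated with r of -0.143 to 0.276, with 2 of 12 pairs over 0.1, and 5 of 12 libraries correlated best with their own number. Both pairs over 0.1 were of SD and C57BL/6 wild-type at E12.5. There each SD library correlated best with the wild-type library of its own number (r of 0.198, 0.0715 and 0.276). The main fit treats these libraries as unpaired. With the replicate number as a block the count between C57BL/6 stages was 3, and Hoxc9 was lost in the SO mean.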
